A study of Caenorhabditis elegans with 66 samples.

Results

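SNPC-4 is a DNA-binding subunit of SNAPc, the complex that activates genes of small nuclear RNAs (snRNAs), in the nematode Caenorhabditis elegans. Its sites in gravid adults were compared with the peaks of an untagged strain. Chromatin immunoprecipitation with sequencing (ChIP-seq) had been done on whole worms of genotype snpc-4::3xflag, which carry a FLAG epitope on SNPC-4, and on wild type N2 worms with no tag, both at 72 h (gravid adults) and with 3 libraries each. These 6 libraries are part of a series of 33 immunoprecipitated and 33 input libraries. The cultures were liquid and kept at 20 °C. Each library holds all tissues, so a peak carries no information on the cell type. Per the labels, part of a staged culture was harvested at 48 h and the rest was grown on, and nothing states that replicates came from separate cultures. The p-values below therefore measure only the spread between these libraries, which may be technical. A site was a region called in at least 2 of the 3 SNPC-4 libraries, after regions that overlapped by 1 bp had been merged. Of 8273 such sites, 3036 overlapped a peak of any N2 72 h library and were set aside, and 5237 (63.3%) were free of N2 peaks. Of the free sites 4527 (86.4%) were called in all 3 SNPC-4 libraries.

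SNAPc binds a promoter element upstream of snRNA genes and recruits RNA polymerase II or III to them. In the worm the same complex also serves the spliced leader RNAs SL1 and SL2, whose leaders are joined to the 5′ ends of messenger RNAs, and the piRNA genes. These encode short RNAs that guide the silencing of foreign sequences in the germline, and most of them lie in a pair of broad clusters on chromosome IV. Genes of tRNAs and of 5S rRNA are transcribed by RNA polymerase III from promoters inside the gene.

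The SNPC-4 lists were far longer than those of N2. They held 16534, 15682 and 16476 summits, against 2233, 1400 and 4220 in N2 once 3, 0 and 9 mitochondrial summits had been left out. The lists carry no counts, so depth is unknown and no interval for counting error can be given. The highest fold over input, as the authors computed it for each summit, was 260, 226 and 300 in the SNPC-4 libraries and 6.25, 7.36 and 9.37 in N2. These folds were used to rank peaks within a list. No 2 of the 6 lists shared more than 2.33% of their summits at the same base. N2 replicate 3, with the longest N2 list, weighs most on what was set aside. Without it 22.6% of the sites were set aside, against 36.7% with it.

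Setting aside N2 regions removed the strongest SNPC-4 sites far more often than the weak ones. Of the 100 sites of highest mean fold, 83 overlapped an N2 peak. By the folds of each library alone the count was 82, 83 and 83. Among sites with a fold from 1 to 2, 25.7% were set aside, from 5 to 10 it was 47.7%, and at a fold of 50 or more it was 79.3%. The N2 peaks inside the 83 sites had a median fold of 3.20 and a highest fold of 6.69. The whole N2 lists had median folds of 2.02, 2.08 and 2.38 and highest folds of 6.25, 7.36 and 9.37. For sites ranked 501 to 2000 by SNPC-4 fold the median N2 fold was 3.35, so the strongest sites did not stand out by their N2 folds. Without N2 replicate 3 the count of sites set aside among the 100 was 73. It was 53 when both groups were limited to summits of fold 3 or more.

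**Figure D1:**
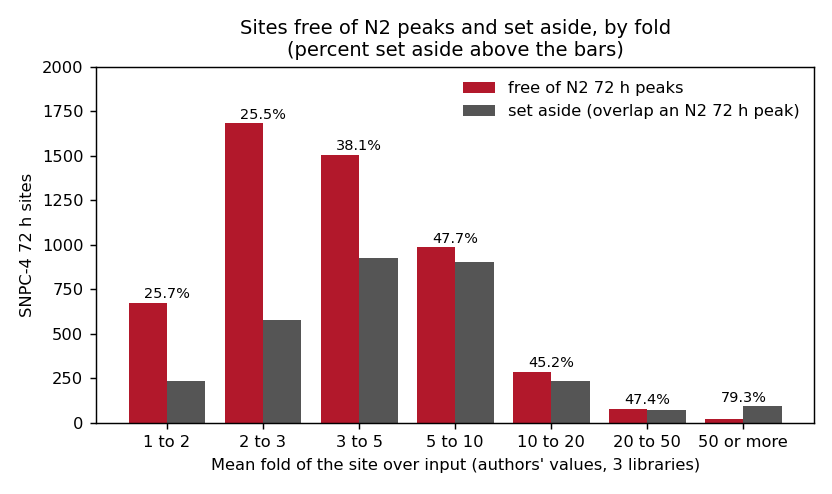
Number of SNPC-4 72 h sites in bins of mean fold over input (authors' values, mean of 3 libraries), free of N2 72 h peaks (left bars) and set aside (right bars), with the percent set aside above each pair. The share set aside is 25.7% in the lowest bin and 79.3% at a fold of 50 or more.

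The sites set aside included snRNA and spliced leader genes, known targets of the complex, and snoRNA genes. The snoRNA gene F59C6.15 (chromosome I, 10516978 to 10517150) had folds of 260, 226 and 300 in SNPC-4 libraries, against 3.57, 3.68 and 6.26 in N2. The spliced leader gene sls-2.4 had 252, 213 and 280 in SNPC-4, against 4.32, 3.62 and 5.93 in N2. The snRNA gene F38E11.10 had 231, 182 and 274 in SNPC-4, against 4.37, 3.07 and 5.40 in N2. These 3 genes lie in sites that were among the highest by SNPC-4 fold, and no N2 fold exceeded 9.37. That their SNPC-4 folds stood above those of N2 thus follows from the choice. At each of them the peak was called in all 3 N2 lists. The same held for rpr-1, the gene of the RNase P RNA, with 199, 176 and 230 in SNPC-4 and 2.70, 2.33 and 3.68 in N2. The snRNA gene C52E4.8, with 219, 174 and 262 in SNPC-4 and 4.19, 3.18 and 5.69 in N2, had the highest mean N2 fold of the snRNA genes.

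The share set aside differed widely between the gene classes of the sites, where a site takes the class of its highest summit, within 200 bp of a gene. It was 81.4% for snoRNA sites (92 of 113), 83.3% for SL2 sites (10 of 12), 47.5% for snRNA sites (28 of 59) and 45.7% for tRNA sites (187 of 409). It was 10.3% for piRNA sites (32 of 312) and 19.7% for sites inside protein-coding genes, away from their ends (399 of 2025). Without N2 replicate 3 the tRNA value was 28.4%, that of protein-coding ends 24.7% (42.7% with it) and that inside protein-coding genes 11.0%. The low piRNA share counts sites, and 118 sites in the piRNA clusters of chromosome IV, 2.26 Mb in all, were among those set aside, against 599 free sites of 2.47 Mb there. Of the SNPC-4 summits of the piRNA class, 50.3% ± 0.22 (SD, n = 3) lay in free sites. The longest site set aside spanned 169732 bp and the longest free one 74431 bp.

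In whole lists, genes of each of 16 gene lists more often had a peak in SNPC-4 than in N2 libraries. The order of the means turned for 6 of them (snoRNA, miRNA, histone, ribosomal protein, collagen and protein-coding) once lists of equal length were compared. Among these 6 the groups were then apart for protein-coding genes alone. For the 88 snRNA genes the percentage with a peak was 79.5%, 77.3% and 79.5% in SNPC-4 libraries, against 22.7%, 19.3% and 26.1% in N2. All 12 genes of SmY RNAs, nematode RNAs that associate with trans-splicing, had a peak in each SNPC-4 library, against 16.7% to 25% in N2. Of the 18 SL2 genes 98.1% ± 3.21 had one in SNPC-4, against 61.1% ± 11.1 in N2. For 612 tRNA genes it was 85.7% ± 1.98 in SNPC-4 and 21.1% ± 11.3 in N2, and for 344 snoRNA genes, whose order turned at equal length, 38.4% ± 1.01 in SNPC-4 and 20.8% ± 7.36 in N2 (SD, n = 3 each). The 15363 piRNA genes stood at 63.4% ± 1.22 in SNPC-4 and 0.195% ± 0.108 in N2, the 20 rRNA genes at 51.7% ± 2.89 in SNPC-4 and 6.67% ± 2.89 in N2, and 209 tRNA pseudogenes at 15.9% ± 1.81 in SNPC-4 and 0.957% ± 0.478 in N2. The 3 SNPC-4 libraries lay above the 3 N2 libraries without overlap in all 16 gene lists. Each list gave an exact two-sided permutation p of 0.1, the smallest that 20 labellings allow, and 0.1 after Benjamini-Hochberg adjustment over the 16 lists. No list could therefore pass a threshold of 0.05.

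**Figure D2:**
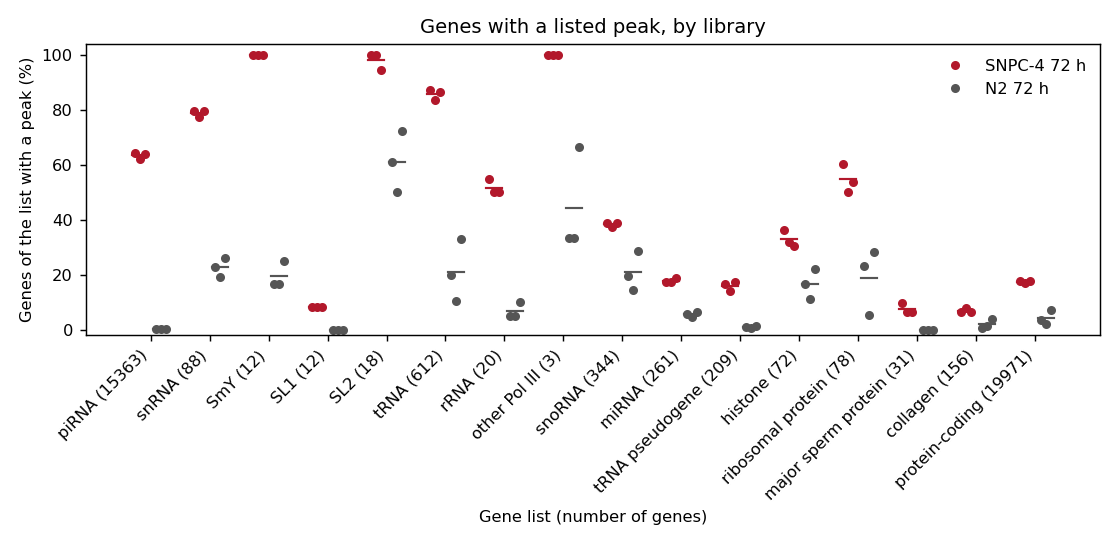
Percent of the genes of each list with a summit within 200 bp, in each SNPC-4 72 h library (left points) and each N2 72 h library (right points); bars are means. The SNPC-4 points lie above the N2 points in all 16 lists (in 6 of them the means changed order for lists of equal length), with the smallest difference, 4.91 points, for collagen genes.

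These percentages grow with the length of a list, and part of the classes did not keep their order when all 6 lists were shortened by q value to the 1400 summits of the shortest. The snRNA genes then had a peak at 70.1% ± 1.74 in SNPC-4 and 18.9% ± 1.74 in N2, and SL2 genes at 94.4% ± 0 in SNPC-4 and 55.6% ± 5.56 in N2. For tRNA genes it was 18.2% ± 0.90 in SNPC-4 and 11.7% ± 2.22 in N2, and for piRNA genes 2.81% ± 0.546 in SNPC-4 and 0.113% ± 0.0294 in N2. For 6 lists the direction of the means turned. Among these the groups were apart for protein-coding genes alone (exact permutation p = 0.1). For the others the exact permutation p was 0.4 to 0.7, so their difference was within the spread of the libraries. Histone genes stood at 11.6% ± 0.802 in SNPC-4 and 13.4% ± 2.12 in N2, ribosomal protein genes at 5.13% ± 0 in SNPC-4 and 8.12% ± 4.12 in N2, and all 19971 protein-coding genes at 1.54% ± 0.123 in SNPC-4 and 2.51% ± 0.313 in N2. The snoRNA, miRNA and collagen lists turned as well, with differences of -1.45, -0.64 and -0.64 points.

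The share of a library's own summits in each class shows how the lists were made up. The piRNA class held 28.3% ± 0.262 of the SNPC-4 summits and 0.952% ± 0.111 of the N2 summits, and 3.30% of the genome. Ends of protein-coding genes held 16.6% ± 0.104 in SNPC-4 and 24.9% ± 2.11 in N2, and other non-coding RNA genes 4.19% ± 0.0665 in SNPC-4 and 11.7% ± 1.83 in N2. For each of these the groups did not overlap (exact permutation p = 0.1, adjusted 0.125 over 15 classes). The difference of 27.3 points for the piRNA class became 10.5 points with lists of equal length (11.5% ± 1.52 in SNPC-4 and 1.00% ± 0.189 in N2) and 3.43 points when each region was counted once, both without overlap of the groups (exact permutation p = 0.1). For the ends of protein-coding genes the difference of -8.34 points became -1.21 points with each region counted once (exact permutation p = 0.4). The inside of protein-coding genes, which takes in 50.7% of the genome, held 21.7% ± 0.150 in SNPC-4 and 20.3% ± 3.28 in N2. That difference was within the spread of the N2 libraries (exact permutation p = 0.7, adjusted 0.75). With lists of equal length the share inside protein-coding genes was 22.5% ± 0.367 in SNPC-4 and 14.2% ± 2.55 in N2, and the groups no longer overlapped (exact permutation p = 0.1). The tRNA share, 3.00% ± 0.0214 in SNPC-4 and 4.45% ± 0.407 in N2 over whole lists, became 7.52% ± 0.36 in SNPC-4 and 4.67% ± 0.852 in N2 at equal length, so its direction depends on how far down the lists are read.

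At the level of single genes, 10758 of 46890 annotated nuclear genes (22.9%) had a peak in all 3 SNPC-4 libraries and in no N2 library. Of these 7892 were piRNA genes, 1758 protein-coding genes and 285 tRNA genes. By list the share was 75% for SmY genes, 51.4% for piRNA genes, 46.6% for tRNA genes, 45.5% for snRNA genes (40 of 88) and 40% for rRNA genes. It was 33.3% for the RNase P, RNase MRP and Y RNA genes (1 of 3) and 8.80% for protein-coding genes. All of these but the protein-coding share stand above the share over all genes, where the piRNA genes make up most of the calls. The shares of the remaining lists stand below it. The opposite pattern, a peak in all 3 N2 libraries and in no SNPC-4 library, was found at 7 genes (0.0149%). They were the actin gene act-2, the gluconeogenic enzyme gene pck-1, the GMP reductase gene gmpr-1, the microRNA gene mir-52 with the overlapping Y37A1B.335, C06G4.4 and 21ur-13200. At mir-52 the N2 folds were 2.31, 2.04 and 2.93.

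Among snRNA genes free of N2 peaks, F07C6.5 (chromosome IV, 12795584 to 12795705) had the highest fold, 102, 82.3 and 105 in the 3 SNPC-4 libraries. F38E11.11 followed with 90.2, 72.2 and 103, and Y9C9A.111 with 82.5, 69.6 and 85.5. K09C6.12 and R07E5.16 had means of 71.4 ± 9.07 and 70.5 ± 8.97 (SD, n = 3). Replicate 2 was the lowest at each of these 5 genes. The first 4 kept their order within each library, and the order of K09C6.12 and R07E5.16 changed between libraries. At F07C6.5 the summits lay 39, 38 and 37 bp outside the gene. No SNPC-4 library had a peak at 18 of the 88 snRNA genes, among them B0213.21, B0213.22, B0213.23 and B0213.24, which lie together on chromosome V, between 3956514 and 3969427. How reads of similar copies were placed is not given in the sources used here. A missing peak therefore does not show that SNPC-4 was absent. Of the SmY genes, smy-8, smy-9 and smy-10, which share a site in the larger piRNA cluster, had means of 62.1, 59.7 and 57.5. smy-2, with 144, 119 and 164 in SNPC-4, was called in all 3 N2 libraries too, at 2.44, 2.41 and 3.44.

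The folds of SL2 genes were among the highest, with a median at percentile 99.7 of all summits of a SNPC-4 library, and nearly all of these genes carried N2 peaks. Only sls-2.10 and sls-2.11, near each other on chromosome IV, had a peak in all 3 SNPC-4 libraries and in no N2 library (4 SL2 genes without N2 replicate 3). sls-2.11 had 58.5, 45.5 and 58.5, and sls-2.10 had 48.7, 36.7 and 47.2. sls-2.6 was the exception at the low end, with 1.55 and 1.37 in SNPC-4 replicates 1 and 2, no peak in replicate 3 and none in N2. Of the 12 SL1 genes, copies that alternate with 5S rRNA genes on chromosome V, sls-1.8 alone had SNPC-4 peaks. Its folds of 8.51, 7.44 and 9.59 are those of a summit inside the window of rrn-4.8 as well, and lay 193 to 199 bp from sls-1.8. How reads of near-identical copies were placed is not given in the sources used here, so values for SL1, 5S and tRNA genes describe listed peaks only.

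Of the other genes of RNA polymerase III, yrn-1, which encodes a Y RNA, had 44.1, 34.5 and 46.1 and no N2 peak. mrpr-1, the gene of the RNase MRP RNA, had 103, 103 and 123 in SNPC-4 and a peak of 2.58 in N2 replicate 3 alone. Among 5S rRNA genes rrn-4.12 had 21.2, 17.5 and 23.9 with no N2 peak, while rrn-4.15 had 29.6, 24.2 and 29.3 in SNPC-4 and 1.86 in N2 replicate 3. The 5S genes rrn-4.1, rrn-4.9, rrn-4.10, rrn-4.13, rrn-4.14 and rrn-4.16 had no peak in any of the 6 libraries. In the array of 5S genes on chromosome V, from 17115903 to 17131456, the copies ranged from no peak to a mean fold of 24.5 at rrn-4.7, which also had a peak in all 3 N2 libraries. rrn-4.15 lies outside that array.

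Transfer RNA sites were numerous and had lower folds than snRNA sites. The free sites of the tRNA class had a median fold of 3.95 ± 0.438, against 21.3 ± 3.46 at snRNA sites (mean and SD of the medians of 3 libraries). They stood near the middle of all free sites, with a median at percentile 60.7 ± 2.37 of their folds. A few stood far above. ZC412.t1 (chromosome V, 14876389 to 14876461) had 84.8, 68.6 and 97.6, C06B8.t1 had 46.4, 40.8 and 52.8, and K12H4.t1 had 44.3, 35.9 and 55.7. ZC412.t2 and Y40H7A.t2 had means of 43.3 ± 6.71 and 35.4 ± 4.40. At all 5 of these genes the summits of the 3 libraries lay inside the tRNA gene. Of the 222 free tRNA sites, 36.5% overlapped a peak of the N2 48 h lists, the highest share after that of snoRNA sites, 42.9%.

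Among snoRNA genes, which encode guides of RNA modification, F47G4.9 (chromosome I, 14058839 to 14058910) had 167, 140 and 167, the highest folds of any free site. T21F2.3 on the X chromosome had 26.6, 20.9 and 25.9. The microRNA genes mir-2214, mir-8196.1 and mir-8196.2 had means of 59.6 ± 12.1, 51.9 ± 5.37 and 35.1 ± 5.32. In all 3 SNPC-4 libraries and no N2 library a peak was called at 30 of 261 microRNA genes (11.5%) and 27 of 344 snoRNA genes (7.85%, and 50 genes without N2 replicate 3), against 22.9% over all genes. A further 94 snoRNA genes and 10 microRNA genes had a peak in all 3 SNPC-4 libraries and in at least 1 N2 library, the snoRNA gene F59C6.15 among them.

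SNPC-4 sites of the piRNA class, most of whose genes lie in the clusters, were wider than free sites as a whole. The free ones had a median width of 1478 bp, against 541 bp over all free sites, and a median of 2.33 summits per library. The longest spanned 74431 bp. The larger cluster, a window of chromosome IV whose annotated piRNA genes run from 13543927 to 17199461, held 30.3% ± 0.293 of the summits of a SNPC-4 library, and the smaller, with piRNA genes from 4630304 to 6998272, held 12.1% ± 0.449. In the larger cluster 67.7% ± 0.104 of the summits fell in the piRNA class, which takes in 57.2% of its bases. In the smaller the values were 58.8% ± 1.45 of the summits and 30.0% of the bases. Among called piRNA genes free of N2 peaks and with no gene of another short RNA class within 500 bp, 21ur-602 had the highest fold, with 35.6, 32.1 and 39.1. Its summits lay 166 to 177 bp from it, and the same site held 54 further short RNA genes. 21ur-6325 had 31.8, 27.3 and 31.1 in a site with 73 others, and 21ur-10115, in the smaller cluster, had 14.5, 11.9 and 14.2 in a site with 3 others. The window of a single piRNA gene thus often holds a summit that belongs to several of them. Outside the clusters the N2 lists reached some piRNA genes too. At 21ur-12279 on chromosome I the folds were 11.4, 9.97 and 12.6 in SNPC-4 and 3.19, 2.83 and 4.81 in N2. Counted as sites, each once however long, free piRNA sites had a median fold of 2.82 ± 0.164, at percentile 38.2 ± 2.05 of all free sites. Counted by gene, and ranked among all summits of a SNPC-4 library, in free sites or not, piRNA genes had a median at percentile 71.3 ± 0.843. For tRNA genes it was 60.1 ± 2.87. The percentiles by site and by gene thus differ in the set they rank in as well as in the counting.

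Summits held different positions by class. At the 40 snRNA genes with a peak in all 3 SNPC-4 libraries and no N2 library, 5% of summits lay inside the gene and 90% within 100 bp of it, with a median distance of 50.7 bp ± 2.57. At 9 SmY genes the median was 40.7 bp ± 1.53 and at yrn-1 46.7 bp ± 3.06. Over all 17 SL2 genes with a peak in the 3 SNPC-4 libraries, N2 peaks or not, it was 44.0 bp ± 2.65. At 285 tRNA genes 81.4% ± 0 of the summits lay inside the gene. At 7892 piRNA genes 4.77% ± 0.454 lay inside, and the rest were spread over the window, with 24.2% ± 0.863 at 1 to 50 bp, 28.4% ± 0.721 at 51 to 100 bp, 27.8% ± 1.22 at 101 to 150 bp and 14.9% ± 0.597 beyond. The position also repeated more closely between libraries at snRNA genes. The range over the 3 libraries had a median of 4 bp there, 12 bp at tRNA genes and 38 bp at piRNA genes. The annotation used here gives no strand, so upstream and downstream were not separated.

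**Figure D3:**
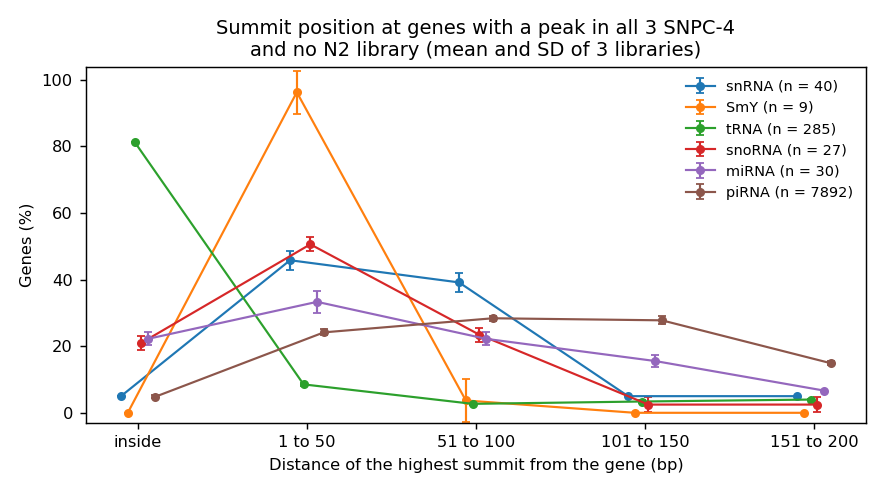
Percent of genes by distance of their highest summit from the gene, for genes with a peak in all 3 SNPC-4 72 h libraries and in no N2 72 h library; points are means and bars SD of 3 libraries. tRNA genes have 81.4% of summits inside the gene, SmY genes 96.3% within 50 bp outside it, and piRNA genes are spread over the whole window.

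Most free sites lay away from any short RNA gene. Of the 5237, 4430 (84.6%) had none within 500 bp, and 807 had one. These counts take each merged site once, however long. The piRNA class held 28.3% ± 0.262 of the SNPC-4 summits but only 280 of the free sites. The share of the genome within 500 bp of a short RNA gene was not computed, so the 84.6% has no background beside it. Sites away and sites near were of like strength at the middle, with a median mean fold of 3.18 away and 3.45 near. A mean fold of 10 or more was reached by 286 sites away (6.46%) and 105 near (13.0%). Sites inside protein-coding genes, a class with 50.7% of the genome, were the largest class of those away. They numbered 1566 with a median fold of 3.59, of which 158 reached 10. Then came 1521 sites in none of the classes, which may still lie in or near a pseudogene, 89 of them at 10 or more, and 1147 at ends of protein-coding genes, 26 of them at 10 or more.

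The make-up of the free sites changed with rank. Among the 100 of highest fold (20.5 to 158), 22 belonged to snRNA, SmY, SL or rRNA genes or to those of RNase P, RNase MRP and Y RNAs. A further 12 belonged to tRNA genes or their pseudogenes, 8 to snoRNA or microRNA genes and 2 to piRNA genes. Of the 100, 46 lay away from short RNA genes. Ranked by each library alone, 46, 47 and 46 lay away. At ranks 101 to 500, 82.8% lay away, and 48% of the sites had their highest summit inside a protein-coding gene. That class takes in 50.7% of the genome. With only the summits of −log10 q of 10 or more in both groups, 30 of the top 100 lay away.

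**Figure D4:**
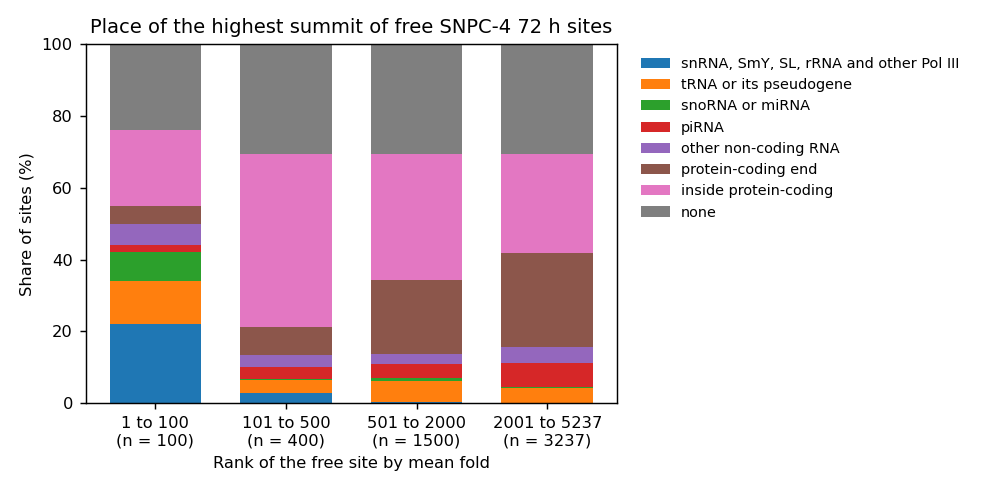
Share of free SNPC-4 72 h sites by the place of the highest summit, in 4 ranges of rank by mean fold. At ranks 1 to 100, 22% lay at snRNA, SmY, SL or rRNA genes or those of RNase P, RNase MRP and Y RNAs. The inside of protein-coding genes holds 21% there and 48% at ranks 101 to 500, and takes in 50.7% of the genome.

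The highest site away from short RNA genes lay on chromosome II, 9786998 to 9789521, with folds of 85.9, 84.1 and 103. Its summit was 339 bp from the cytochrome P450 gene cyp-13A2 and 829 bp from cyp-13A3. The second (chromosome I, 13858975 to 13860595) lay inside W04A8.6, 2188 bp from taf-1, a gene of a general transcription factor subunit, with 83.1, 67.9 and 89.6. The third (chromosome III, 6209251 to 6211315) lay inside C23G10.1, 2408 bp from the ribosomal protein gene rps-3, with 65.4, 53.4 and 86.0. Next came sites inside D2024.18, with 65.8, 57.3 and 80.3, and inside bed-2, which encodes a BED zinc finger protein, with 62.1, 54.1 and 62.9. The nearest short RNA gene of the D2024.18 site was 21ur-15639 at 771 bp, while those of the other 4 lay 7824 to 24034 bp away. All 3 libraries called each of these 5 sites. The first site was above the second and the second above the third within each library, and the third and the fourth changed order between libraries.

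The remaining 7 of the 12 highest had mean folds of 42.6 to 57.9. They lay 726 bp from ctsa-3.1, inside the pseudogene B0513.6, 666 bp from Y44A6D.5, inside atgp-2, inside Y56A3A.28, 1747 bp from F46F11.1 and 2102 bp from Y41D4A.7. The sites near Y44A6D.5 and Y41D4A.7 were 91948 and 92854 bp from the nearest short RNA gene. The atgp-2 summit was 81 bp from the non-coding RNA gene lfor-2 as well.

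Of the 32 free sites at ends of protein-coding genes with a fold of 10 or more, 26 lay away from short RNA genes. The sites of the 3 protein-coding genes of highest mean fold among those free of N2 peaks each held at least 1 short RNA gene. nas-22, an astacin protease gene, had 61.1, 47.5 and 72.1, in a site that also held the snRNA gene T11F9.15. The sites of str-172, a chemoreceptor gene with a mean of 46.0 ± 4.95, and of rom-4, a rhomboid-related gene with 31.1 ± 2.62, held 11 and 114 short RNA genes. msp-50, of the major sperm protein family, had 30.9, 25.8 and 34.0 in a site with no other gene and no N2 peak, and was the 1 of 31 msp genes so called (2 without SNPC-4 replicate 3). Its summits lay 180 to 185 bp from the gene. The collagen genes col-137 and col-120 had means of 7.06 ± 2.08 and 4.72 ± 0.492, and the site of col-137 held 201 short RNA genes. Of 156 collagen genes 3 were called (6 without SNPC-4 replicate 1 and 6 without replicate 3). Histone and ribosomal protein genes stayed low, with his-5 and his-6, which share a summit, at 3.38 ± 0.264 and rps-5 at 2.33 ± 0.421. Of 72 histone genes 6 were called (8.33%) and of 78 ribosomal protein genes 14 (17.9%), against 8.80% over all protein-coding genes and 22.9% over all genes, most of whose calls are piRNA genes.

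Along the chromosomes, free sites numbered 43.9 per Mb on X and 66.4 per Mb on chromosome IV, which holds the clusters. Away from short RNA genes the numbers were closer, 35.4 per Mb on X and 48.9 per Mb on chromosome III. The middle 50% of the chromosome's length held 50% of the sites away on chromosome III and 46.7% on I, but 30.9% on V and 22.5% on X. These sites were chosen for not overlapping N2 regions, which were themselves unevenly placed, with 47.9% on X and 67.7% on V in the same middle part, so the shares of the 2 sets are not independent.

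The free sites were set beside the other SNAPc lists of the series, each taken as regions called in at least 2 of 3 libraries. SNPC-4 at 48 h in L4 larvae of the same genotype shared 81.0% of the free sites (51.2% of its own 8279 regions), and SNPC-4 at 72 h in snpc-4::3xflag; snpc-1.2(-) worms shared 80.6% (56.9% of 7180). Tagged SNPC-1.2 at 72 h in whole worms shared 14.7% (40.2% of 2089), and tagged SNPC-1.1 at 56 h in isolated germline nuclei of young adults 67.6% (45.0% of 7959). Regions with N2 peaks were not taken out of these other lists. Their regions that match SNPC-4 72 h sites set aside therefore count as not shared, which lowers the shares in brackets. The shares with SNPC-1.2 and SNPC-1.1 differed by class. Of 280 free piRNA sites 65.4% overlapped SNPC-1.2 and 16.1% SNPC-1.1. Of the 4430 sites away from short RNA genes 9.59% overlapped SNPC-1.2 and 70.8% SNPC-1.1, and of the 46 among the top 100, 5 and all 46. At ranks 101 to 500, 100% of the sites were shared with either SNPC-4 list and 96.5% with SNPC-1.1. The N2 lists of the other groups held fewer of the free sites. Peaks of N2 at 48 h (933 to 2930 summits per list) overlapped 8.86% of the free sites and 7.65% of those away. They overlapped 15.5% of the sites near short RNA genes and 16 of the top 100. N2 germline nuclei at 56 h, with lists of only 26 to 1001 summits, overlapped 1.41% of the free sites and 1.04% of those away. The N2 72 h lists of the SNPC-1.2 experiment held at most 7 summits and overlapped none. These lists differ in length, and those of SNPC-1.1 come from germline nuclei rather than whole worms, so the shares are given as a description with no test. Cultures may be shared between the 48 h and 72 h SNPC-4 libraries.

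**Figure D5:**
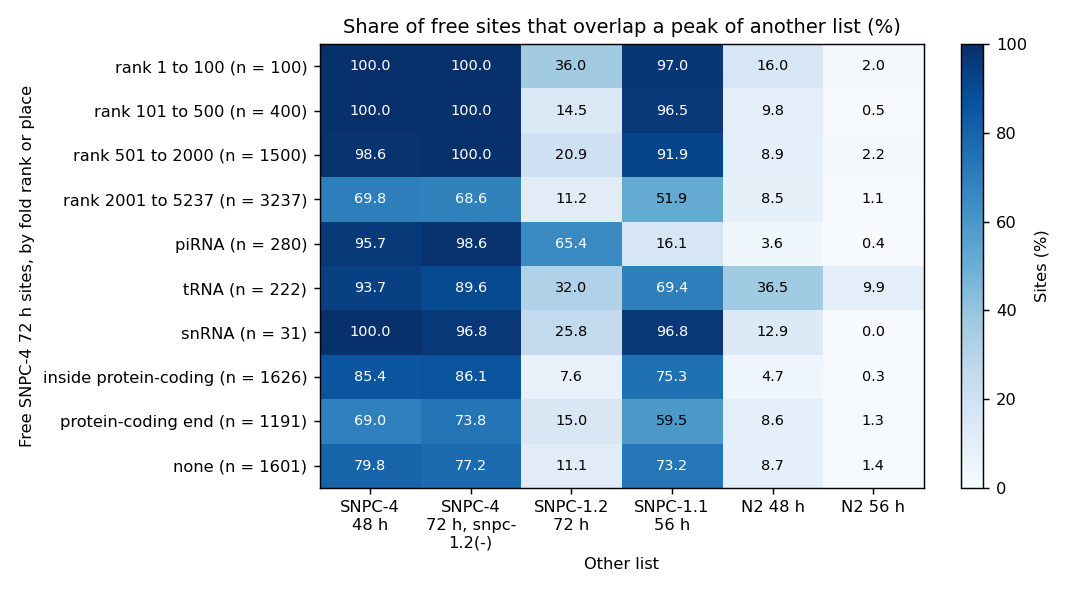
Percent of free SNPC-4 72 h sites, by fold rank or by place class (rows, with their number), that overlap a region of another list (columns): 4 SNAPc lists called in at least 2 of 3 libraries and any peak of N2 at 48 h or 56 h. At ranks 1 to 500 nearly all sites are shared with both other SNPC-4 lists and SNPC-1.1, and piRNA sites with SNPC-1.2 (65.4%) more than with SNPC-1.1 (16.1%).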

How the data were processed

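Immunoprecipitated libraries of SNPC-4 72 h and N2 72 h (3 each) were compared through their deposited peak lists, called per library against its own input. Per the submitters' processing notes the peak caller was MACS2 2.1.2, deepTools was used, and the genome build was WBcel235. The aligner and filters are not given in the sources used here. Column 7 of the deposited lists is a ratio, the authors' fold over input at the summit, column 9 the deposited −log10 of the q value (lowest about 1.30), and the region start, region end and summit offset are deposited positions of another kind. The caller split broad regions into several summits, and each summit was counted. Reads were 50-bp paired-end, per the labels.

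A gene was counted as having a peak if it had a summit at most 200 bp from its span (genes up to 500 bp) or from its start or end (longer genes), since the RefSeq table used (WBcel235) gives no strand. Summits took the first matching class in a fixed order (snRNA, SmY, SL, other RNA polymerase III, tRNA, rRNA, snoRNA, microRNA, piRNA, tRNA pseudogene, other non-coding RNA, end of or inside a protein-coding gene). The class called other RNA polymerase III held rpr-1, mrpr-1 and yrn-1 alone. Mitochondrial genes were left out. Gene lists followed biotypes and gene names, and the members and lists were chosen with earlier results of these data known. Group differences were tested by exact two-sided permutation of 3 against 3 libraries with Benjamini-Hochberg adjustment. Named genes had a peak in all 3 SNPC-4 libraries and in no N2 library, lay in a site with no N2 peak, had (for short RNA lists) no gene of another such list within 500 bp, and were the highest by mean fold in their list. Members of lists of at most 20 genes, the highest N2 genes, the highest sites set aside, genes behind counts of 7 or fewer and 4 snRNA genes with no peak were named too, the last 3 kinds after their values were seen. A search for promoter motifs was not run, since no sequence was used here. The functions were tested on simulated lists. Python 3.11.15, numpy 2.4.6, pandas 2.3.3 and matplotlib 3.10.9 were used. Peak lists of 2 other tagged groups of the series were not used.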

Additional observations from a re-analysis of the deposited data

How the results depend on the processing

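Under other settings, 938 recomputed values gave 86 that moved and 19 that reversed. The other 833 include 350 differences between SNPC-4 and N2 that were judged by direction alone, and 68 of these changed in size by over 1.5 times. Lists of equal length brought the difference to 2.70 points for piRNA genes (63.2 in whole lists) and 6.59 for tRNA genes (64.7), and a 500 bp window brought that for SL1 genes to 47.2 (8.33). With only summits of −log10 q of 10 or more, the difference in the share of summits was 0.0632 points for SmY and 0.374 for tRNA, both reversed, 16.3% of the sites were set aside and 30 of the top 100 free sites lay away from short RNA genes. With fold 3 or more these were 0.0909 and 2.60 points, both reversed, with 18.3% set aside, and 53 of the top 100 called sites overlapped N2. Lists of equal length reversed the mean difference in the percent of genes with a peak for snoRNA (-1.45 points), miRNA (-0.64), histone (-1.85), ribosomal protein (-2.99), collagen (-0.64) and protein-coding genes (-0.97). Of these only protein-coding genes had groups apart (exact permutation p = 0.1). The share of summits reversed for snRNA (3.00), SmY (0.67), SL2 (0.50), other RNA polymerase III (0.14) and tRNA (2.86). A 100 bp window left 4903 genes called in all SNPC-4 and no N2 libraries and no SL1 gene (difference 0), and a 500 bp window 17917, against 10758. Classing by the nearest gene, or counting each region once, also brought the SL1 share of summits to 0. Set aside were 38.9% of sites called in all 3 libraries, 19.9% for peaks in at least 2 N2 libraries, and 42.3% with N2 48 h peaks added. The cause of these changes was not tested.

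Leaving out each library in turn gave 22.6% to 38.2% of sites set aside, and shares of summits that differed by -0.0422 to 0.00550 points for SmY, -0.00191 to 0.0114 for rRNA and -0.43 to 2.69 inside protein-coding genes, so none of these 3 classes has a stable direction. Free sites ranged over 4761 to 6403, those away over 3973 to 5430 and called genes over 10822 to 11830. With a library left out the rule for a called gene is looser, so this number can only rise above the 10758 of the whole set. The same holds for the counts of single gene lists given above. Without an SNPC-4 library a site had to be called in both that remained. The folds of same-numbered libraries did not deviate together (correlations of -0.0418, 0.0174 and -0.0938 over 591 genes). Whether same-numbered libraries shared a culture was not tested, since a correlation of folds does not identify a culture. With the replicate block the difference for snRNA genes stayed at 56.1 points with a smallest possible p of 0.25, and 14243 genes had a peak in SNPC-4 but not in N2 in at least 2 of 3 numbered pairs and the opposite in none. Depth is unknown, so genes without a peak are not shown to be free of SNPC-4.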
